A study of Medicago truncatula with 6 samples.

Results

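The 5 genes described here are named for 2 steps of nitrogen use in the plant. They are 4 genes of glutamine synthetase and 1 gene annotated as a peptide/nitrate transporter, taken by their identifiers from the 50443 genes of the deposited table. GS1a (Medtr3g065250) and GS1b (Medtr6g071070) are cytosolic glutamine synthetases, Medtr2g021255 and Medtr2g021242 carry the annotation of a glutamine synthetase domain protein, and Medtr4g019580 is the transporter. The deposited table holds identifiers alone, so the names GS1a and GS1b were not checked against a sequence. The genes were chosen with the difference between the groups already known, and Medtr2g021255, Medtr2g021242 and Medtr4g019580 are among the 790 genes that the study listed as changed by w5. The fold changes of the 5 genes are therefore given as a description, and the counts of those that pass a threshold support nothing, since the choice of genes fixed them.

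Root RNA of *Medicago truncatula* A17 was sequenced from 3 biological replicates with *Gongronella* sp. w5 and 3 without it. The plants with w5 were grown in Petri dishes in which a plug of the fungus, a soil-borne member of the Mucoromycotina, was placed on a neighbouring medium with glucose, and roots in contact with the mycelium were taken at 16 days post-inoculation (dpi). The roots without w5 (controls) came from plants grown alone, on the same medium without a carbon source that the other plants had. The paper does not say whether the control dishes also held the medium with glucose, so w5 and that medium may not be separable here. The labels of the controls give no time point. All libraries are bulk root RNA, so fewer cells of a type and less RNA per cell cannot be told apart. No root marker gene could be checked by name, since the sources used here pair names only with the genes that the study listed.

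The libraries held between 6983430 and 7539956 counts in the controls and between 6547753 and 6822646 with w5. Roots with w5 were taken in contact with the mycelium, and RNA of the fungus in those libraries was not measured here. TMM scaling factors lay from 0.984 to 1.01, and 16905 genes with enough counts were fitted with edgeR's quasi-likelihood method, all 5 genes among them. Levels of different genes are compared as FPKM, the deposited read counts per gene length and library total. Levels of 1 gene are given as CPM, its counts relative to the TMM-scaled library total.

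Glutamine synthetase joins ammonium to glutamate and so makes glutamine, the entry point of inorganic nitrogen into amino acids. Plants have cytosolic forms, usually called GS1, and a plastid form, usually called GS2, that in leaves takes up the ammonium from nitrate reduction and photorespiration. Nitrate reaches that step through membrane transporters, nitrate reductase in the cytosol and ferredoxin-nitrite reductase in the plastid. Peptide/nitrate transporters form a large plant family whose members carry nitrate, small peptides or hormones, and the substrate of Medtr4g019580 is not given in the sources used here. Nor do these sources place the products of Medtr2g021255 and Medtr2g021242 in a compartment of the cell.

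The 5 genes lay in the same order of FPKM in every library, with GS1a at the top, then GS1b, Medtr2g021255, Medtr2g021242 and the transporter. No neighbours in this order overlapped within either group. By its mean FPKM in the controls, GS1a ranked 8 among the 24038 genes with a level above 0, and GS1b ranked 67. Medtr2g021255 ranked 998, Medtr2g021242 ranked 4756 and Medtr4g019580 ranked 9852. In the roots with w5, the rank of GS1a was 4 and that of GS1b was 59, while Medtr2g021255 stood at 3207, Medtr2g021242 at 8169 and the transporter at 15531.

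**Figure D1:**
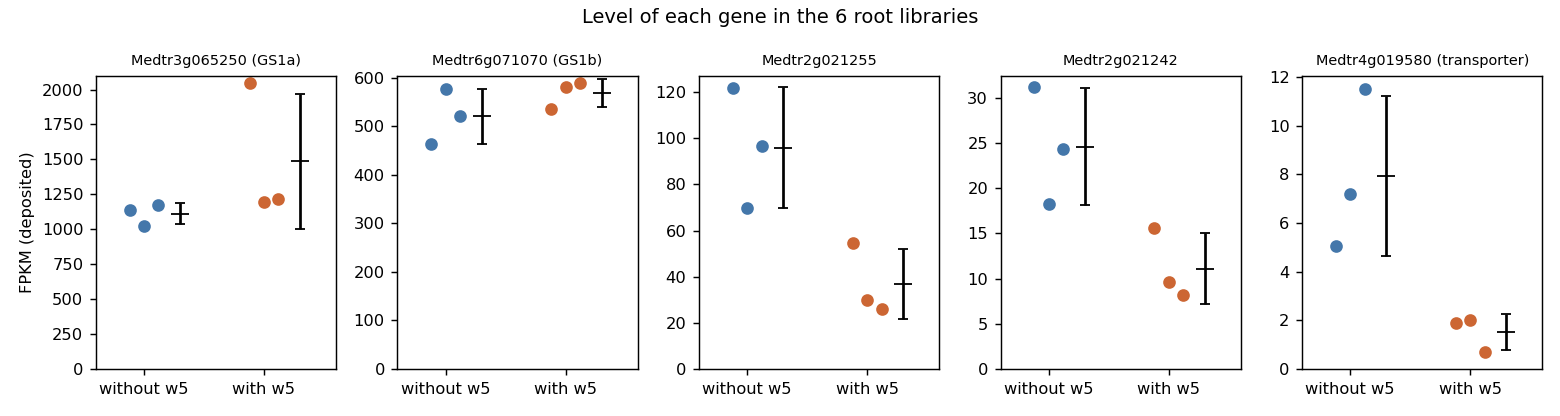
Deposited FPKM of the 5 genes in 3 libraries without w5 (blue) and 3 with w5 (orange), from replicate 1 on the left to replicate 3, each panel on its own axis from 0, with the mean and SD in black. The 3 genes on the right are lower in every library with w5, GS1a is high in w5 replicate 1, and GS1b overlaps between the groups.

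Medtr2g021255 was lower in every root library with w5. Its level was 378, 216 and 303 CPM in the controls and 170, 93.8 and 83.0 CPM with w5. The highest library with w5 thus lay below the lowest control, although the controls spanned 216 to 378 CPM among themselves. The means (± SD, n = 3 per group) were 299 ± 81.0 CPM in the controls and 115 ± 47.3 CPM with w5. In the fit its log2 fold change was -1.37 ± 0.31 (SE) with a 95% interval from -2.08 to -0.67, a level 2.59-fold lower. Its position is chromosome 2, bases 7202259 to 7207199, minus strand, in the study's annotation, which names no genome build.

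Medtr2g021242 was the less abundant of the pair and had the same pattern. It had 303, 166 and 219 counts in the controls and 131, 84 and 70 counts with w5. In CPM these are 40.0, 23.3 and 31.6 without w5 and 20.0, 12.3 and 10.7 with w5, again with no overlap. Its fitted log2 fold change was -1.14 ± 0.30 (SE) with a 95% interval from -1.81 to -0.47. Without control replicate 1 it was -0.92 and without w5 replicate 3 it was -0.97, so that the gene no longer passed a log2 fold change of 1 in either case. It occupies bases 7191378 to 7194478 of the same strand, which leaves 7780 bases between the pair.

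The ratio of the pair's counts varied little within each group and differed slightly between the groups. Medtr2g021242 held between 9.44% and 9.74% of the pair's counts in the controls and between 10.6% and 11.6% with w5. The exact binomial 95% interval was 8.57% to 10.7% in control replicate 1 and 9.37% to 14.2% in w5 replicate 2, the libraries with the most counts and with the highest share, so these intervals overlap although the shares of the 2 groups do not. Per length, the ratio of Medtr2g021255 to Medtr2g021242 was 3.90 ± 0.0676 in the controls and 3.28 ± 0.191 with w5 (± SD, n = 3 per group), without overlap. The gene length in the table is 3117 bases for Medtr2g021255 and 1287 bases for Medtr2g021242. Since no source used here says how reads matching both genes were counted, the split of counts between the pair is uncertain.

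The nearest tested genes beside the pair did not separate the groups. In the order of identifiers, Medtr2g021248 and Medtr2g021252 stand between the pair, the former with no count in any library and the latter with 1 and 4 counts in w5 replicates 1 and 3 and none elsewhere. On one side, the next gene, Medtr2g021227, was at 0 counts throughout, so the nearest tested gene was Medtr2g021220, which had 28.5, 26.7 and 17.7 CPM in the controls and 22.6, 24.1 and 25.1 CPM with w5. Its log2 fold change was -0.02 (95% interval -0.52 to 0.47), so the interval leaves out a decrease as large as that fitted for either gene of the pair. On the other side, Medtr2g021260 had 19.0, 16.0 and 15.9 CPM without w5 and 19.4, 18.4 and 16.7 CPM with it. The log2 fold change of Medtr2g021260 was 0.10 (95% interval -0.35 to 0.54). Both flanking genes overlapped between the groups, and neither carries an annotation in the sources used here. They were chosen for their place beside the pair, after the values were seen.

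**Figure D2:**
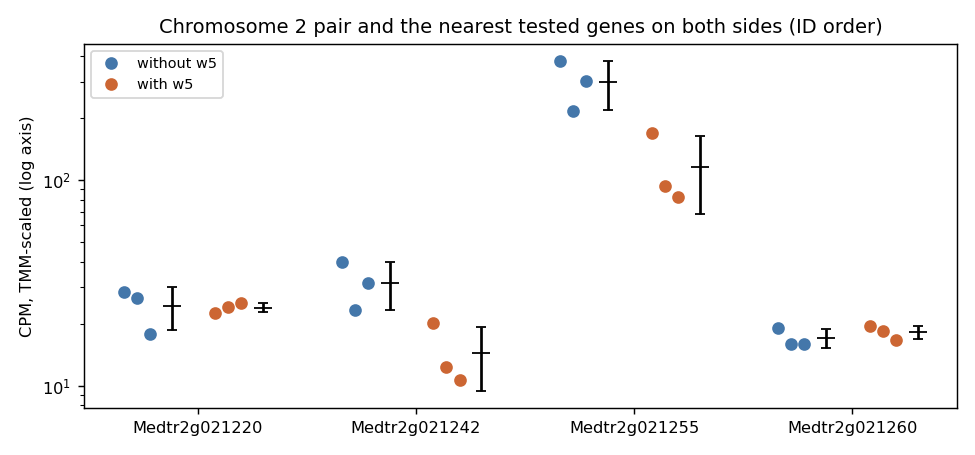
TMM-scaled CPM on a log axis for the glutamine synthetase pair on chromosome 2 and the nearest tested gene on each side by identifier, in libraries without w5 (blue) and with w5 (orange), with the mean and SD in black. The pair is lower in all 3 libraries with w5, while the flanking genes Medtr2g021220 and Medtr2g021260 overlap between the groups.

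The cytosolic genes did not show this decrease. GS1a had 1136, 1026 and 1172 FPKM in the controls and 2046, 1195 and 1219 FPKM with w5. Every library with w5 was above every control, but w5 replicates 2 and 3 stood close to control replicate 3, and w5 replicate 1 stood far above the others. The log2 fold change of GS1a was 0.43 ± 0.23 (SE) with a 95% interval from -0.10 to 0.96, and without w5 replicate 1 it was 0.15. GS1b had 463, 576 and 522 FPKM in the controls and 536, 581 and 589 FPKM with w5. The groups overlapped, and the log2 fold change of 0.14 ± 0.16 (SE) had a 95% interval from -0.22 to 0.50, which leaves out a change of 1 in either direction. The spread between libraries was small in GS1b, with a coefficient of variation of 10.8% in the controls and 4.99% with w5. For GS1a it was 6.86% in the controls and 32.6% with w5.

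The chromosome 2 pair held a smaller part of the RNA of the 4 glutamine synthetase genes in every library with w5. Further glutamine synthetase genes outside the study's list could not be found by name and are not in the sum. Since the pair was chosen with its difference known, the smaller share is a description. The pair made up 8.73%, 5.20% and 6.67% of the summed FPKM of the 4 genes in the controls and 2.64%, 2.18% and 1.86% with w5. The groups did not overlap, and the means were 6.87% ± 1.77 and 2.23% ± 0.391 (± SD, n = 3 per group). Medtr2g021255 alone held 5.47% ± 1.42 in the controls and 1.71% ± 0.320 with w5, and Medtr2g021242 held 1.40% ± 0.356 and 0.519% ± 0.0722 (± SD, n = 3 per group). The share of GS1a was 63.4% ± 2.31 without w5 and 69.7% ± 6.44 with w5, and that of GS1b was 29.8% ± 3.92 and 28.1% ± 6.79 (± SD, n = 3 per group). The GS1a shares did not overlap, but their means differed by less than the SD with w5, and the GS1b shares overlapped. The share does not depend on how the libraries are scaled.

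In w5 replicate 1 the GS1a share was 77.1%, against 65.8% and 66.2% in the other libraries with w5. GS1b held 20.2% there, against 32.0% in each of the others. The ratio of GS1a to GS1b FPKM was 2.45, 1.78 and 2.25 in the controls and 3.81, 2.06 and 2.07 with w5. Thus the ratio of the cytosolic genes differed in 1 library and overlapped between the groups otherwise. The ratio of GS1b to Medtr2g021255 was between 3.80 and 8.26 in the controls and between 9.86 and 22.6 with w5. That ratio did not overlap, and w5 replicate 1 had the lowest value of its group.

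The summed level of the 4 genes was not lower in the roots with w5. It was 1752, 1689 and 1814 FPKM in the controls and 2652, 1816 and 1842 FPKM with w5. The pair contributed 153, 87.9 and 121 FPKM of this in the controls and 69.9, 39.6 and 34.3 FPKM with w5. GS1a and GS1b together had 1631 ± 53.7 FPKM without w5 and 2055 ± 456 FPKM with w5 (± SD, n = 3 per group). Most of the SD with w5 came from replicate 1, in which they reached 2582 FPKM against 1776 and 1808 in the others.

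**Figure D3:**
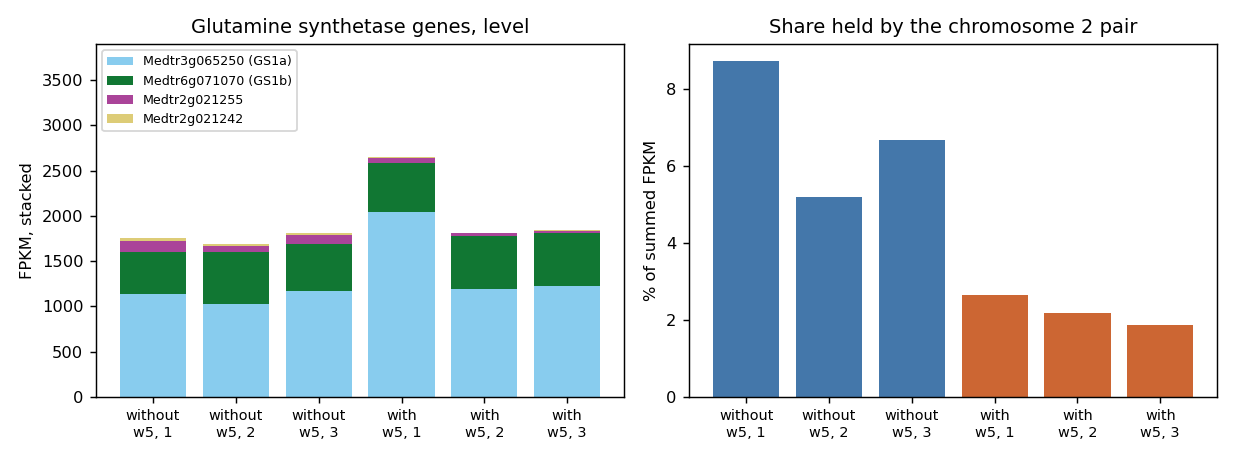
Left, stacked deposited FPKM of the 4 glutamine synthetase genes in each of the 6 libraries. Right, the percentage of that sum held by Medtr2g021255 and Medtr2g021242 together, in libraries without w5 (blue) and with w5 (orange), which is at least 5.20% in every control and at most 2.64% with w5.

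The transporter Medtr4g019580 had the largest fold change of the 5 genes and the lowest level. It had 84, 112 and 177 counts in the controls and 27, 30 and 10 counts with w5. The highest library with w5 thus had fewer counts than the lowest control. The means (± SD, n = 3 per group) were 17.4 ± 7.37 CPM in the controls and 3.35 ± 1.59 CPM with w5. This gave a log2 fold change of -2.37 ± 0.45 (SE) with a 95% interval from -3.40 to -1.34, a level 5.17-fold lower. Within the groups, control replicate 3 stood above the other controls and w5 replicate 3 below the other libraries with w5, and without them the log2 fold change was -1.98 and -2.03. Its position is chromosome 4, bases 6145157 to 6150261, minus strand, in the study's annotation.

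Under the thresholds of the comparison (an unadjusted p below 0.05 together with a log2 fold change beyond 1 in size), which 4.77% of all genes tested passed, 3 of the 5 genes were lower with w5, where 2.73% of all genes were, and 0 were higher, where 2.03% were. These are the pair on chromosome 2 and the transporter, and since the genes were chosen on this contrast nothing is read from the count. After adjustment over all genes, 0 of the 5 passed 0.05 in edgeR's quasi-likelihood test, where 0.0177% of all genes did, and 3 had an unadjusted p below 0.05. With DESeq2 and with edgeR's exact test the adjusted p of the same 3 genes was below 0.05, and with limma-voom none was. In 4 of the 5 genes the groups did not overlap in CPM, where the share of all genes tested was 16.1%, with 3 lower and 1 higher against 9.04% and 7.02% of all genes. The median log2 fold change of the 5 genes was -1.14 and that of all genes tested was -0.01.

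**Figure D4:**
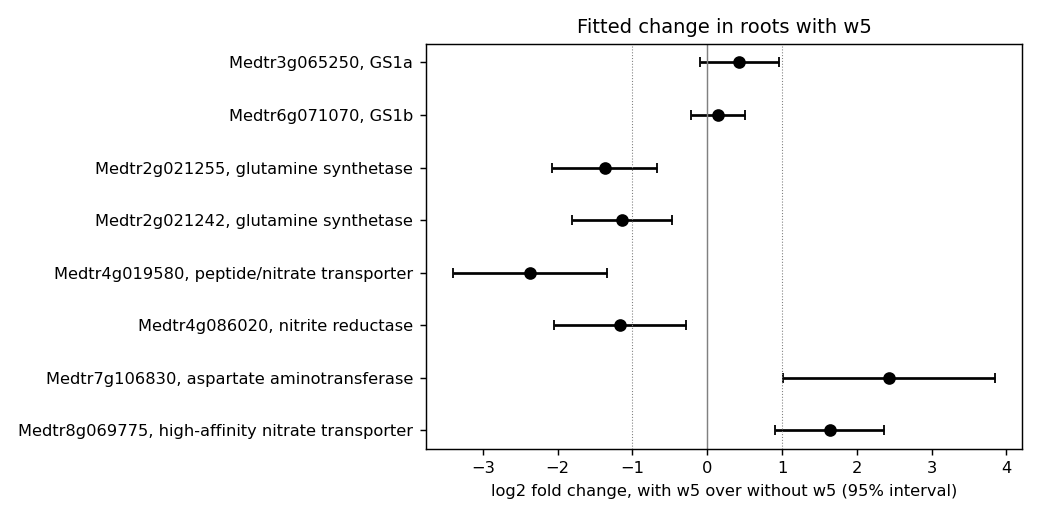
Log2 fold change of roots with w5 over roots without w5, with 95% intervals from edgeR's quasi-likelihood fit (n = 3 libraries in each group), for the 5 genes and the 3 other tested genes of nitrogen transport and assimilation. Dotted lines mark a log2 fold change of 1 in each direction. The intervals of GS1a and GS1b include 0 and those of the other 6 genes do not.

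Genes annotated with other steps of nitrogen transport and assimilation were sought by product name in the study's list of changed genes, which was made from these libraries, so the direction of its members is not independent evidence. Of 13 classes sought, 4 had members, with 5 genes in all, and 3 of these had enough counts to be tested. Under the same thresholds, 2 of the 3 were higher and 1 was lower, where 2.03% and 2.73% of all genes were. Membership of the study's list fixed that they would differ, so this count is no result about nitrogen genes. After adjustment, 0 of the 3 passed with edgeR's quasi-likelihood test or limma-voom, 2 with edgeR's exact test and 3 with DESeq2, and all 3 had an unadjusted p under 0.05. Their median log2 fold change was 1.64. No gene of nitrate reductase, glutamate synthase, glutamate dehydrogenase, asparagine synthetase or ammonium transport carried such a name in that list, and these steps are not analysed here.

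Medtr8g069775, annotated as high-affinity nitrate transporter 2.7, differed in the opposite direction to Medtr4g019580. It had 76, 104 and 55 counts in the controls and 212, 316 and 149 counts with w5. The libraries with w5 were all above the controls, with a log2 fold change of 1.64 ± 0.32 (SE) and edgeR gave an adjusted p of 0.0944. Many transporters of this class bring nitrate into the cell when it is scarce outside. The sources used here do not say where in the cell this one acts, and nitrate uptake was not measured. The 2 genes annotated as peptide transporters, Medtr1g041875 and Medtr3g112460, were near the limit of detection. The former had 1, 0 and 0 counts in the controls and 3, 3 and 10 with w5, and the latter 1, 3 and 3 counts in the controls and 5, 11 and 14 with w5. Neither was tested with edgeR's expression filter.

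Medtr4g086020, annotated as ferredoxin-nitrite reductase, the plastid enzyme that reduces nitrite to ammonium, was lower with w5. It had 454, 406 and 626 CPM in the controls and 373, 134 and 154 CPM with w5. The groups did not overlap, but w5 replicate 1 stood close to control replicate 2. The log2 fold change was -1.17 ± 0.38 (SE) and edgeR gave an adjusted p of 0.273, and without w5 replicate 1 it was -1.77. Without control replicate 3, w5 replicate 2 or w5 replicate 3 the gene no longer passed the thresholds. In the libraries with w5, replicate 1 was also the highest for Medtr2g021255, Medtr2g021242 and GS1a.

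Medtr7g106830, annotated as an aspartate aminotransferase, an enzyme that moves the amino group between glutamate and aspartate, had 10, 15 and 1 counts in the controls and 35, 48 and 47 counts with w5. The groups did not overlap, and the log2 fold change was 2.43 ± 0.63 (SE) and edgeR gave an adjusted p of 0.160. Without control replicate 2 the log2 fold change was 3.10. The gene was weakly expressed, with 0.723 ± 0.601 FPKM without w5 and 3.91 ± 0.591 FPKM with w5 (± SD, n = 3 per group).

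Genes of the study's list with glutamine or glutamate in their names were added after their values were seen. Medtr6g004280, a class I glutamine amidotransferase, an enzyme type that takes the amide nitrogen of glutamine, had 15.4, 6.60 and 7.93 CPM in the controls and 73.5, 27.2 and 38.3 CPM with w5. The log2 fold change was 2.21 ± 0.44 (SE) and edgeR gave an adjusted p of 0.0971, and w5 replicate 1 was the highest library again. Medtr3g117590, the amidotransferase that opens purine synthesis, had 12, 6 and 4 counts in the controls and 0, 2 and 0 with w5 and was too weakly expressed to be tested. The glutamate receptor genes Medtr4g087925 and Medtr8g073490 encode membrane channels and not enzymes of assimilation. Medtr4g087925 had 46, 17 and 16 counts in the controls and 71, 57 and 85 counts with w5, with a log2 fold change of 1.57 that was 2.20 without control replicate 1. Medtr8g073490 had 10, 0 and 0 counts in the controls and 21, 13 and 22 counts with w5, so that all counts of the controls lay in replicate 1 and no fold is given.

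Genes of green tissue in the study's list were lower with w5, as the chromosome 2 pair was. Of 39 genes annotated as photosystem or light-harvesting in the study's list, 37 were tested and all 37 were lower with w5 under the same thresholds, where 2.73% of all genes were. Membership of the study's list of changed genes fixed that they, like the pair, would differ, so the shared difference links nothing. None of the 39 was at 0 in any library. Their summed level was between 4866 and 9099 CPM in the controls and between 2462 and 3273 CPM with w5. Their part in the decrease of the pair, of the nitrite reductase or of the transporter was not tested.

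The summed photosystem level was 7772, 9099 and 4866 CPM in the controls and 2502, 2462 and 3273 CPM with w5. Beside it, Medtr2g021255 stood at 378, 216 and 303 CPM in the controls and 170, 93.8 and 83.0 CPM with w5. Both measures were higher in every control than in any library with w5, and within the 3 libraries of a group their order was not the same. Control replicate 2 had the highest photosystem level of the controls and the lowest level of Medtr2g021255. Among the libraries with w5, replicate 3 likewise had the highest photosystem level and the lowest level of Medtr2g021255. Over all 6 libraries, which share the difference between the groups, Pearson's r of log2 CPM with the summed photosystem level was 0.718 for Medtr2g021255, 0.697 for Medtr2g021242 and 0.687 for Medtr4g019580. For GS1a it was -0.67 and for GS1b -0.45.

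**Figure D5:**
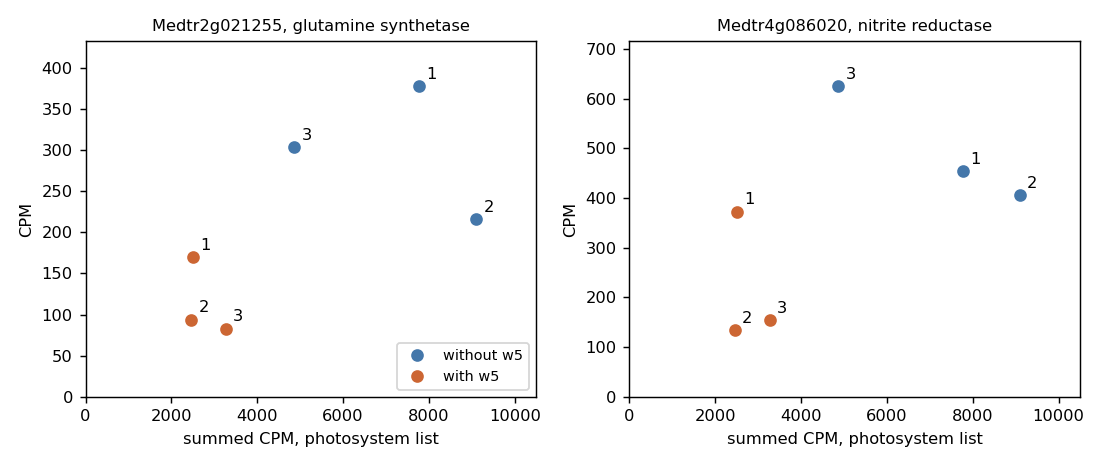
CPM of Medtr2g021255 (left) and of the nitrite reductase Medtr4g086020 (right) against the summed CPM of 37 photosystem and light-harvesting genes, in 3 libraries without w5 (blue) and 3 with w5 (orange), with replicate numbers. All 3 libraries without w5 lie above those with w5 in both measures, in each panel.

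Over the 6 libraries, which share the difference between the groups, Medtr2g021255 was most like Medtr2g021242 among all genes tested. Pearson's r of their log2 CPM was 0.998. How reads matching both genes were counted is not known, so this r cannot be read as the likeness of 2 separately counted genes. The next genes for both members of the pair were Medtr4g116170 and Medtr8g031550, with r between 0.990 and 0.994. For Medtr4g019580 they were Medtr3g080070, Medtr8g035960 and Medtr6g033410, with r between 0.983 and 0.997. GS1a was most like Medtr1g012440, Medtr2g101920 and Medtr7g016640 (r between 0.978 and 0.982), and GS1b was most like Medtr5g009160, Medtr2g007220 and Medtr7g106900 (each r = 0.996). GS1a and GS1b had an r of -0.02 with each other, and Medtr2g021255 and the transporter had 0.842. Such values ignore the size of a change, as Medtr3g080070 had a log2 fold change of -0.12 and Medtr4g019580 of -2.37. None of the genes named here beside the 5 is annotated in the sources used here.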

How the data were processed

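The authors deposited whole-number read counts per gene, not normalized, from stranded paired-end libraries of total RNA. They also deposited FPKM values, which equal the count divided by gene length and library total in all 131099 values above 0 (largest relative difference 5.09e-15). The paper names the *M. truncatula* genome database, whereas Bowtie 0.12.2 and a mouse build, mm8, appear in the submitters' notes. Neither the counting program, nor how it treated reads with several matches, nor the annotation version could be learned from the sources used here.

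Genes passing edgeR's filterByExpr were scaled by TMM and tested in R 4.3.3 (edgeR 4.0.16, robust quasi-likelihood, condition as the only term), and Benjamini-Hochberg adjustment covered all genes tested. Binomial intervals cover counting error only. Correlations used log2 CPM with a prior count of 2. The procedure was run on simulated counts in which the spread of a gene followed from its mean level alone. That setting leaves out differences in spread between genes of like level, so nothing is concluded from it here. Replicate libraries differed beyond sampling noise (chi-square per gene from 9.29 to 29.4). The p-values set the difference between the groups against the spread between these libraries. Nothing says how the plants of a replicate were pooled.

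The genes and lists were chosen with earlier results of these data known. The rule for named genes took the 5 genes, for each nitrogen class the genes past the thresholds (at most 3 by p) and its member with the highest mean FPKM, and the 3 genes most correlated with each of the 5. The other peptide transporter, the genes beside the chromosome 2 pair and the genes with glutamine or glutamate in their names fall outside it and were added after their values were seen. A RefSeq table (MtrunA17r5.0-ANR) matched 755 of the 790 listed genes but held no product names, so names and positions come from the study's list. Its columns of fold changes and p-values were not used. Alternatives were DESeq2 1.42.0 (without edgeR's filter), limma 3.58.1, edgeR's exact test, other scalings and filters, a term for replicate number, and omission of single libraries.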

Additional observations from a re-analysis of the deposited data

How the results depend on the processing

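The log2 fold changes of the 5 genes kept their direction in all 15 alternatives. They lay between -1.75 and -1.15 for Medtr2g021255, between -1.45 and -0.92 for Medtr2g021242, between -2.60 and -1.98 for Medtr4g019580, between 0.15 and 0.58 for GS1a and between 0.08 and 0.22 for GS1b. The lowest value of GS1a came without w5 replicate 1. Under the unadjusted thresholds, between 2 and 3 of the 5 genes were lower when 1 library was left out.

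At an adjusted p under 0.05 the number of calls depended on the test. Of all genes, 3 passed with edgeR's quasi-likelihood test, 540 with DESeq2, 529 with edgeR's exact test, 195 with no filter, and between 1 and 103 when 1 library was left out, with 103 without control replicate 3. Of the 5 genes, 3 passed with DESeq2, 3 with edgeR's exact test, 1 with no filter (Medtr4g019580) and 0 when any 1 library was left out. Of the other nitrogen genes, 3 passed with DESeq2, 2 with edgeR's exact test and 1 with no filter. With no filter and with DESeq2, 4 nitrogen genes were higher at the unadjusted threshold, since the weakly expressed peptide transporters were then tested. Between 2 and 3 were higher and between 0 and 1 was lower when 1 library was left out, with 0 lower without control replicate 3, w5 replicate 2 or w5 replicate 3.

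With the replicate block, 176 genes, 1 of the 5 genes (Medtr2g021255) and 1 nitrogen gene (Medtr8g069775) passed at an adjusted p under 0.05. Deviations of the same-numbered libraries had correlations of 0.230, -0.0543 and -0.0276, and 2 of the 6 libraries correlated best with their own number. With so few libraries, this cannot decide whether same-numbered libraries share more than a number. The labels give no pairing, so the main fit has no term for it.

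Counted by reads in place of FPKM, Medtr2g021255 held 9.77% of the 4 glutamine synthetase genes in the controls and 3.15% with w5, as its gene length is the greatest of the 4. At 10 counts in w5 replicate 3, depth limits the level of Medtr4g019580.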
